A study of Mus musculus with 6 samples.

Results

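The tumor suppressor p53, encoded by *Trp53*, was examined with its regulators and known target genes in RNA-sequencing of mouse AML cells with and without *Phf6*. The 32 genes were chosen by name, and each matched a gene name among the 54532 genes of the deposited table. *WT Phf6,RE9a* (*WT*) cells came from *Phf6 fl/y* male mice, and *VC Phf6,RE9a* (*VC*) cells from *Vav1-Cre;Phf6 fl/y* male mice, in which Vav1-Cre removes the floxed allele in blood cells. Both groups carried the floxed allele and a RUNX1-ETO9a-GFP (RE9a) retrovirus, which was put into lineage-negative fetal liver cells and makes them leukemic after transplantation. GFP+ leukemia cells were sorted from the bone marrow, and 3 libraries were sequenced per group (*WT* replicates 1, 2 and 3, and *VC* replicates 11, 12 and 13). The sources used here give neither the mouse nor the transplant passage behind each library, so p-values measure the spread between these libraries.

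p53 is a transcription factor that is kept low by ubiquitination through Mdm2 and is stabilised after DNA damage and other stress. It then binds response elements near its target genes, whose products stop the cell cycle, repair DNA, start apoptosis or change metabolism. *Mdm2*, *Ccng1* and *Ppm1d* are targets that feed back to switch p53 off, and many targets, *Btg2* and the *Gadd45* genes among them, are also induced without p53. The response is of interest in AML, since loss of p53 function is a mark of poor outcome in this disease.

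Total counts per library lay between 15675358 and 16817994, and a count of 0 leaves room for up to 3 counts, or 0.175 to 0.204 CPM (counts scaled to library size). These limits cover counting error only. Within a group the libraries were further apart than counting noise allows. The chi-square between 2 libraries, as a mean over genes, was 28.9 to 41.3 in *WT* and 10.7 to 13.8 in *VC* cells. Mitochondrial genes took 1.06 to 1.43% of counts in *WT* and 1.51 to 1.54% in *VC* libraries. *Phf6* had 1044, 827 and 1142 counts in *WT* and 388, 314 and 331 in *VC* libraries, so each library followed its label. Reads of *Phf6* remained in *VC* libraries, at 0.315 of the *WT* level (edgeR), and their source was not tested. The blood cell markers *Ptprc*, *Spi1*, *Cd34*, *Cebpa* and *Mpo* were read in every library. Their levels were not the same in the groups, since 2 of the 5 were higher and 1 was lower in *VC* cells (edgeR). The lower one had a log2 fold change of -4.63. Among the marker lists, *VC* cells had less of 10 of 11 mast cell and basophil genes, while 9 of 9 erythroid genes, 7 of 10 proliferation genes, 4 of 4 tested B cell genes and 1 of 1 tested T cell gene were higher. The B cell and T cell lists held 6 genes each and stayed low, with sums of 9.03 to 26.9 and 6.30 to 8.80 CPM in *VC* libraries. Of 7 macrophage genes 2 (28.6%) were called higher, not far from the 21.5% of all genes tested. All 7 had a positive log2 fold change, however, as had 7201 of the 14169 genes tested. Their summed level was 26.4 to 34.5 CPM in *WT* and 48.5 to 53.6 CPM in *VC* libraries. Of the 14169 genes that passed the count filter, 44.2% passed edgeR's quasi-likelihood test at an adjusted p under 0.05, 21.5% of them higher and 22.7% lower in *VC* cells as shares of all genes tested. In bulk RNA, fewer cells of a type and less RNA per cell cannot be told apart.

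*Trp53* itself did not pass the test, while more of its targets fell than rose. Of the 32 genes, 31 passed the count filter, and *Perp* was left out with at most 3 counts in any library. At edgeR's adjusted p under 0.05, 14 of the 31 (45.2%) were lower in *VC* cells, beside 22.7% of all genes tested. Another 4 (12.9%) were higher, beside 21.5% of all genes, and 13 did not pass. The median log2 fold change was -0.27 over the 31 genes and 0.01 over all genes tested, and the difference from all genes was not tested. Among the genes called, 6 that changed 2-fold or more were lower (11.5% of all genes) and 2 were higher (9.95% of all genes). The libraries of the groups did not overlap for 15 lower and 5 higher genes, beside 28.4% and 28.9% of all genes tested. With any library left out in turn, the number of lower genes ran from 8, without *VC* replicate 12 or 13, to 13, and the number of higher genes from 2, without *WT* replicate 1 or 2 or *VC* replicate 11, to 6, without *WT* replicate 3. Over all genes, 3213 were lower and 3047 higher with all libraries. With libraries left out, these numbers ran from 2511 to 3338 lower and from 2179 to 3132 higher. Both were smallest without *VC* replicate 11 and largest without *WT* replicate 3.

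**Figure D1:**
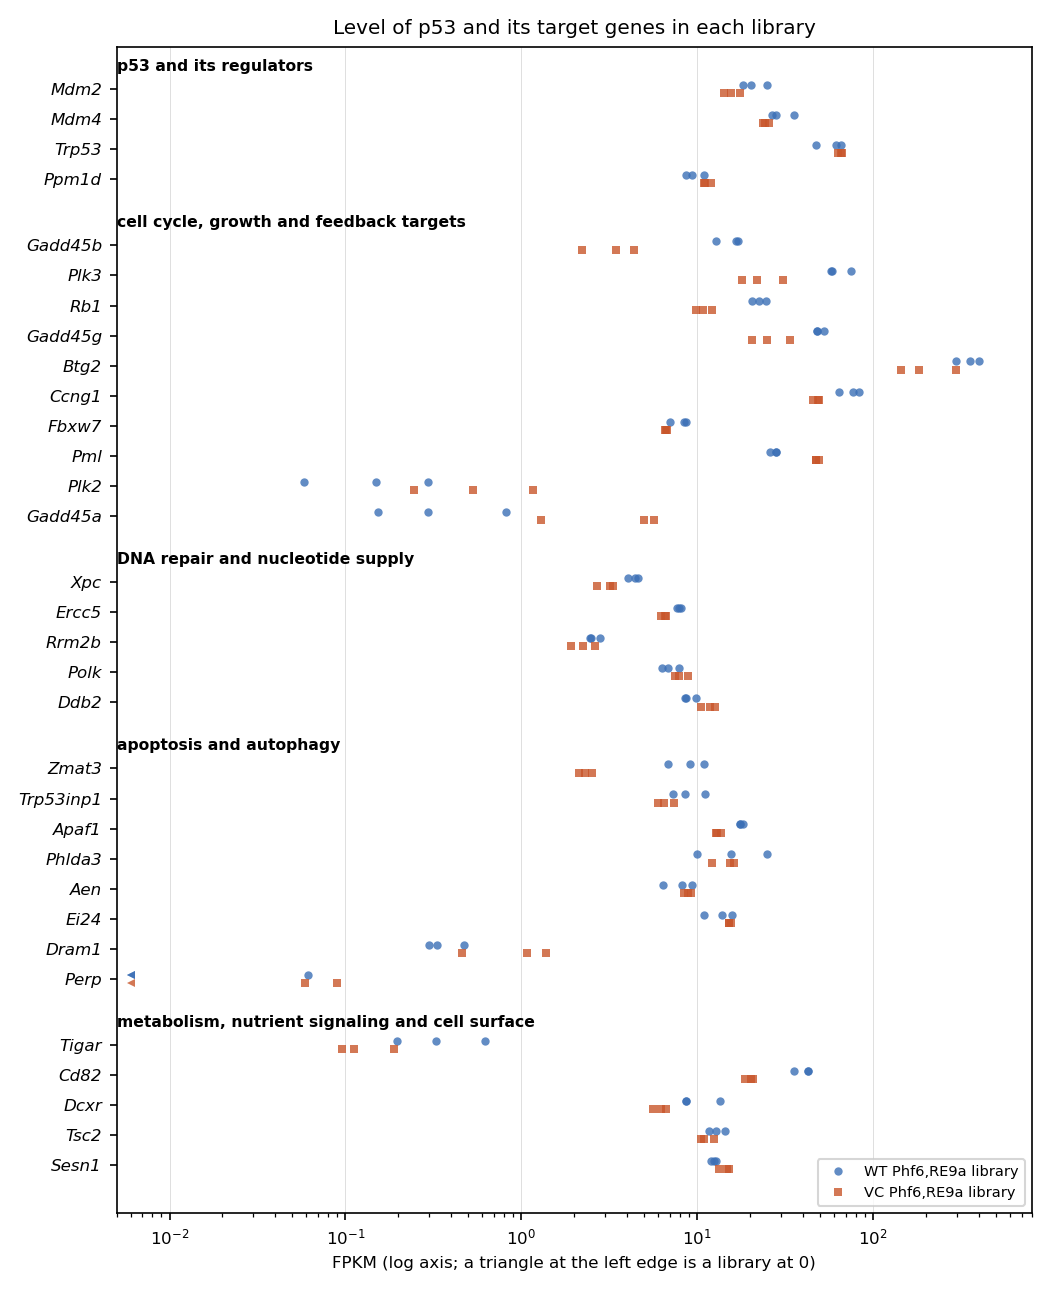
Level of each of the 32 genes in FPKM (counts scaled by gene length and library size, log axis) in the 3 *WT* (circles) and 3 *VC* (squares) libraries, grouped by role; a triangle at the left edge is a library at 0. *Btg2* had the highest mean level in both groups, and *Gadd45a*, *Plk2*, *Dram1*, *Tigar* and *Perp* lay under 1 FPKM on average in *WT* cells.

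Most of the 32 genes were read well above the detection limit in both groups. In each group 17 of them had a mean of at least 10 FPKM, while 5 lay under 1 FPKM in *WT* and 4 in *VC* cells. *Btg2* was the highest in both groups, with a mean of 349 FPKM in *WT* and 208 FPKM in *VC* cells. The next highest mean was that of *Ccng1* in *WT* cells, with 74.9 ± 9.69 FPKM (SD, n = 3), and that of *Trp53* in *VC* cells, with 65.4 ± 1.80 FPKM. *Plk3* at 63.7 ± 10 and *Trp53* at 58.1 ± 9.48 FPKM came next in *WT* cells, and the libraries of *Ccng1*, *Plk3* and *Trp53* overlapped, so their order is not set beyond the spread.

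**Figure D2:**
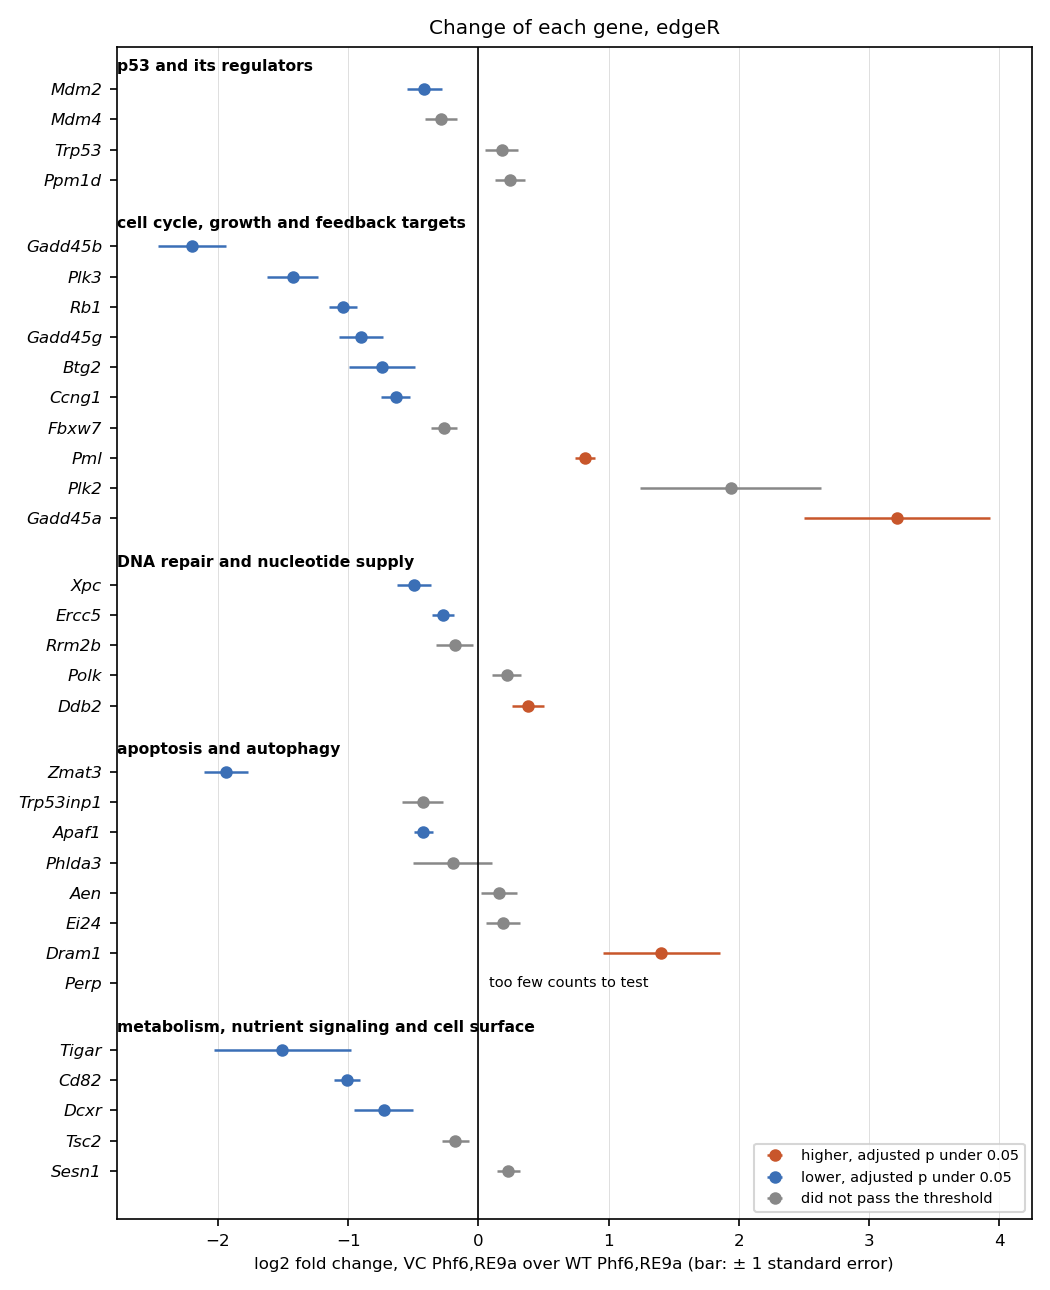
Log2 fold change of *VC* over *WT* cells (horizontal axis, points) with ± 1 standard error (SE, bars) from edgeR for the 31 tested genes, grouped by role; blue marks lower, orange higher and grey genes that did not pass an adjusted p under 0.05. The changes ran from -2.20 for *Gadd45b* to 3.22 for *Gadd45a*.

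Motif matches for p53 were looked for in the promoters before the values are given gene by gene. RefSeq promoters (GRCm38.p6, 250 bases before to 50 after each start) were at hand for 25 of the 32 genes, not for *Rb1*, *Ddb2*, *Xpc*, *Perp*, *Zmat3*, *Trp53inp1* and *Rrm2b*. The p53 response element was searched as a pair of adjacent 10-base sites that each keep the central C and G of the consensus, with at most 3 mismatches over the 16 other positions. It reads the same on both strands, so a match counts for both. It was found for 5 of the 25 genes (20%), against 423 of 27025 genes (1.57%) of the whole promoter table. The matches are shown with the element in capitals and 5 bases on each side, 5′ to 3′ on the gene's strand, to let the elements be compared with the changes of their genes.
*Trp53*, chr11:69580279-69580308, plus strand: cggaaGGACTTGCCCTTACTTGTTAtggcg
*Ccng1*, chr11:40755457-40755486, minus strand: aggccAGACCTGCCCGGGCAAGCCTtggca
*Aen*, chr7:78895932-78895961, plus strand: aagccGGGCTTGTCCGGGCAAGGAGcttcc
*Sesn1*, chr10:41887261-41887290, plus strand: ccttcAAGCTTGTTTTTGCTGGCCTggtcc
*Tigar*, chr6:127109741-127109770, minus strand: gcggcGGTCTAGCTCTGGCAAGACTccagg
*Cdkn1a* (a p53 target outside the 32), chr17:29090923-29090952, plus strand: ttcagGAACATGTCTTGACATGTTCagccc

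The *Ccng1* element had 1 mismatch and began 195 bases before the start, and the other 4 genes had 3 mismatches each. The *Cdkn1a* element also had 1 mismatch and began 51 bases before a RefSeq start. *Ccng1*, *Tigar* and *Cdkn1a* were lower in *VC* cells, while *Trp53*, *Aen* and *Sesn1* did not pass the test. Of the targets outside the 32 with a match not printed here, *Gtse1* and *Gpx1* were higher (edgeR, log2 fold changes of 0.96 and 1.39). *Bbc3* and *Rps27l* did not pass, and *Zfp365* was not tested. Genes with a match in this window thus did not all move alike. A match is a description of letters and not a bound site, and many p53 elements lie outside such windows.

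Among p53 and its direct regulators, only *Mdm2* passed the test, as lower. This is 1 of 4 (25%), close to the 22.7% of all genes tested that were lower. *Trp53* (chromosome 11 of GRCm38, 69580359 to 69591873) had 248, 194 and 268 CPM in *WT* and 259, 269 and 275 CPM in *VC* libraries. *WT* replicate 3 lay within the range of the *VC* libraries, and *WT* replicate 2 was the lowest of all. The log2 fold change was 0.18 (SE 0.13) and did not pass (edgeR, adjusted p = 0.285). These are transcript levels, and p53 is mainly set through the stability of its protein, which was not measured here.

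*Mdm2* (chromosome 10, 117688875 to 117710758), the ubiquitin ligase that removes p53 and a p53 target itself, had 127, 104 and 93.3 CPM in *WT* and 90.6, 79.4 and 73.3 CPM in *VC* libraries. Each *VC* library lay under every *WT* library. The fall from 108 ± 17.2 to 81.1 ± 8.75 CPM (SD, n = 3) gave a log2 fold change of -0.41 (SE 0.13) and passed narrowly (edgeR, adjusted p = 0.0377). It did not pass without *WT* replicate 1 (adjusted p = 0.0992, edgeR) or without *VC* replicate 12 (0.109) or 13 (0.121).

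*Mdm4*, which binds p53 and blocks its activity, had 396, 532 and 419.8 CPM in *WT* and 355, 383 and 367 CPM in *VC* libraries. Groups were apart, but the log2 fold change of -0.29 (SE 0.12) did not pass (edgeR, adjusted p = 0.0966). *Ppm1d*, the Wip1 phosphatase that reverses p53 activation, had 30.8 ± 3.68 CPM in *WT* and 36.4 ± 1.68 CPM in *VC* cells (SD, n = 3), and its log2 fold change was 0.24 (SE 0.12, edgeR adjusted p = 0.129). It passed only without *WT* replicate 3 (adjusted p = 0.0406 from edgeR).

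Of the 10 targets that act on the cell cycle and growth, or feed back on p53, 6 fell and 2 rose, beside 22.7% and 21.5% of all genes tested, and their median log2 fold change was -0.69. The 6 that fell were *Gadd45b*, *Plk3*, *Rb1*, *Gadd45g*, *Btg2* and *Ccng1*, and the 2 that rose were *Gadd45a* and *Pml*.

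*Pml* (chromosome 9, 58218076 to 58249786), the scaffold of the nuclear bodies in which p53 is modified, had 156, 146 and 157 CPM in *WT* and 277, 264 and 269 CPM in *VC* libraries. The libraries of each group lay close together and the groups were far apart. *Pml* rose by 0.82 on the log2 scale, from 153 ± 6.23 to 270.0 ± 6.44 CPM (SD, n = 3) (SE 0.08 for the change, edgeR adjusted p = 0.000194).

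*Rb1* (chromosome 14, 73183673 to 73325822), which encodes the retinoblastoma protein that holds back E2F factors, had 148, 124 and 137 CPM in *WT* and 66.1, 73.2 and 60.1 CPM in *VC* libraries. The highest *VC* library lay well under the lowest *WT* library. Its log2 fold change was -1.04 (SE 0.11, edgeR adjusted p = 0.000292). Exons of *Rcbtb2* and *Lpar6* on the opposite strand cover 8.11% and 6.78% of the exon bases of *Rb1*, both were lower as well (log2 fold changes of -1.46 and -2.60), and without known strandedness their reads cannot be told apart there.

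*Ccng1* (chromosome 11, 40748552 to 40755311), which encodes the atypical cyclin G1 that brings a phosphatase to Mdm2, had 292, 227 and 275 CPM in *WT* and 175, 162 and 174 CPM in *VC* libraries. No libraries of the groups overlapped. It fell by 0.63 on the log2 scale (SE 0.11, edgeR adjusted p = 0.00283). This is the gene whose promoter holds the p53 element with 1 mismatch shown before.

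*Btg2*, an antiproliferative gene that binds the deadenylase complex, had 974, 1099 and 817 CPM in *WT* and 824, 504 and 402 CPM in *VC* libraries. Replicate 11 of *VC* lay just above replicate 3 of *WT*, so the groups overlapped. The log2 fold change of -0.74 (SE 0.26) was barely past the threshold (edgeR, adjusted p = 0.0480). It did not pass without *WT* replicate 1 or 2 or *VC* replicate 12 or 13 (edgeR, adjusted p from 0.0975 to 0.144, log2 fold changes from -0.74 to -0.54).

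The 3 *Gadd45* genes, which encode small stress sensors that bind cell cycle and MAP kinase regulators, moved in opposite directions. *Gadd45b* (chromosome 10, 80930073 to 80932204) had 26.2, 27.5 and 20.5 CPM in *WT* and 7.03, 5.54 and 3.57 CPM in *VC* libraries. Its log2 fold change was -2.20 (SE 0.26, edgeR adjusted p = 0.000513), the largest fall among the 31 tested genes. *Gadd45g* (chromosome 13, 51846678 to 51848468) had 56.3, 62.4 and 57.0 CPM against 29.5, 39.9 and 24.6 CPM. It fell by 0.90 on the log2 scale (SE 0.17, edgeR adjusted p = 0.00437), and for both genes the groups did not overlap.

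*Gadd45a* (chromosome 6, 67035096 to 67037457), the family member most closely tied to p53, went the other way from a very low level. It had 8, 4 and 24 counts in *WT* and 172, 152 and 39 counts in *VC* libraries. Each *VC* library lay above every *WT* library, but replicates 3 and 13 stood close to each other. This gave a log2 fold change of 3.22 (SE 0.72, edgeR adjusted p = 0.00870), or of 4.13 without *WT* replicate 3. Exons of the noncoding *E230016M11Rik* on the opposite strand, with at most 10 counts in any library, cover 19.1% of its exon bases.

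On the FPKM scale, which corrects for length, *Gadd45g* made up most of the *Gadd45* transcripts in each library. The sum of the 3 genes was 64.8, 70.1 and 61.6 FPKM in *WT* and 34.9, 42.2 and 24.1 FPKM in *VC* libraries. The *Gadd45a* share of that sum was 0.454, 0.218 and 1.32% in *WT* and 16.3, 11.8 and 5.36% in *VC* libraries. The *Gadd45b* share went from 20.7 to 25.5% in *WT* libraries down to 8.19 to 12.5% in *VC* libraries, while the *Gadd45g* share, at 74.1 to 78.0% and 71.2 to 85.5%, overlapped. Each *VC* sum lay under every *WT* sum, and *Gadd45a* stayed far under *Gadd45g* in each library.

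Of the polo-like kinase genes, which act in the cell cycle and in stress checkpoints, *Plk3* passed the test and *Plk2* did not. *Plk3* (chromosome 4, 117128655 to 117133963) had 191, 146 and 149.9 CPM in *WT* and 78.5, 56.0 and 46.5 CPM in *VC* libraries, with no overlap. It fell by 1.43 on the log2 scale (SE 0.20, edgeR adjusted p = 0.00110). *Plk2* had only 4, 10 and 22 counts in *WT* and 90, 41 and 19 counts in *VC* libraries, and the groups overlapped. Its log2 fold change of 1.94 (SE 0.70) did not pass (edgeR, adjusted p = 0.0547). It passed without *WT* replicate 3 (edgeR, adjusted p = 0.0394, log2 fold change 2.63) or *VC* replicate 13 (0.0279), as it did with DESeq2 (0.0244).

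**Figure D3:**
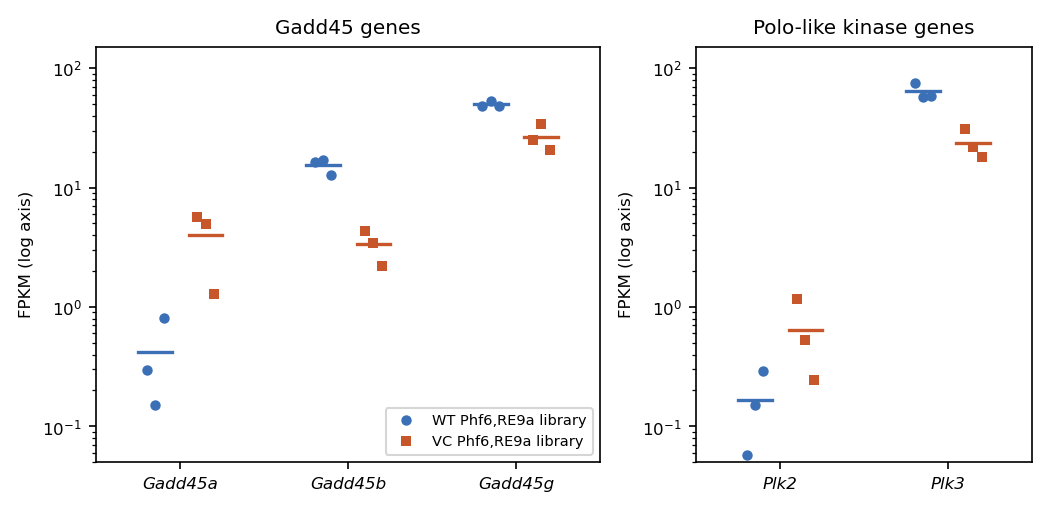
Level in FPKM (vertical log axis) of the *Gadd45* genes (left) and of *Plk2* and *Plk3* (right) in each *WT* (circles) and *VC* (squares) library, with lines at the group means (n = 3). *Gadd45b*, *Gadd45g* and *Plk3* were lower in every *VC* library than in any *WT* library, *Gadd45a* was higher in every one, and *Plk2* overlapped.

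Values of other gene lists moved with these genes. *Btg2*, *Gadd45b* and *Plk3* are also known as early-response genes. Of 12 immediate-early genes such as *Fos* and *Egr1*, 9 were lower in *VC* cells (edgeR), beside 22.7% of all genes tested, and none was at 0 in any library. Their summed level was 28176 to 43369.7 CPM in *WT* and 12911 to 19951 CPM in *VC* libraries. Their part in the falls of *Btg2*, *Gadd45b* and *Plk3* was not tested.

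*Gadd45a*, *Plk2* and *Dram1*, all low in *WT* cells, were highest in *VC* replicate 11 and lowest within that group in replicate 13. All 13 of 13 granulocyte and monocyte maturation markers, such as *S100a8* and *Ltf*, were higher in *VC* cells (edgeR), beside 21.5% of all genes tested, and none was at 0. Their summed level was 212, 183 and 538 CPM in *WT* replicates 1, 2 and 3 and 3991, 2583 and 1064 CPM in *VC* replicates 11, 12 and 13. *WT* replicate 3 was thus the highest and *VC* replicate 13 the lowest of its group in the markers and in the 3 genes alike. *Pml* and *Ddb2*, which were also called higher, were instead lowest within *VC* cells in replicate 12. Nor was the order particular to these markers, since the summed T cell genes followed it at a low level. They had 1.10, 1.42 and 1.57 CPM in *WT* replicates 1, 2 and 3 and 8.80, 8.68 and 6.30 CPM in *VC* replicates 11, 12 and 13. The summed B cell genes, with 26.3, 26.9 and 9.03 CPM in the *VC* replicates, were also lowest in replicate 13 but highest in replicate 12. The part of granulocytes and monocytes in the rises of *Gadd45a* and *Dram1* was not tested.

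**Figure D4:**
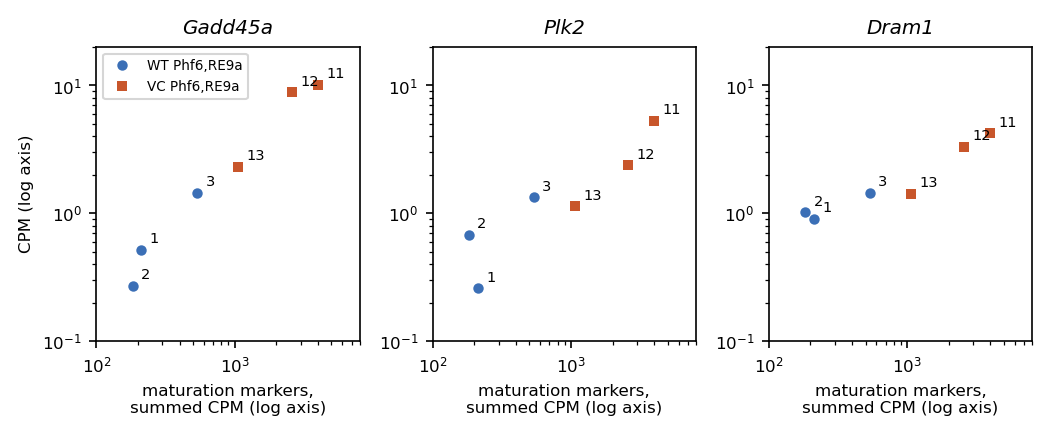
Level in CPM (vertical log axis) of *Gadd45a*, *Plk2* and *Dram1* against the summed level in CPM of 13 granulocyte and monocyte maturation markers (horizontal log axis) in each of the 6 libraries, numbered by replicate. *VC* replicate 13, with 1064 CPM of the markers, lay nearest to *WT* replicate 3, with 538 CPM, in each panel.

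*Fbxw7*, the substrate receptor of a ubiquitin ligase that degrades Myc and cyclin E, went from 57.0 ± 5.94 to 47.4 ± 0.493 CPM (SD, n = 3). The groups did not overlap, but the log2 fold change of -0.27 (SE 0.10) did not pass (edgeR, adjusted p = 0.0623). It passed only without *WT* replicate 3 (edgeR, adjusted p = 0.0129, log2 fold change -0.36).

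Changes in DNA repair and nucleotide supply were small. Of 5 genes *Xpc* and *Ercc5* fell and *Ddb2* rose, beside 22.7% and 21.5% of all genes tested, and each changed by less than 2-fold. *Xpc*, which recognises lesions in nucleotide excision repair, had 24.3, 22.3 and 25.6 CPM in *WT* and 18.5, 17.7 and 15.2 CPM in *VC* libraries. There was no overlap, and the log2 fold change was -0.49 (SE 0.13, edgeR adjusted p = 0.0184). Without *VC* replicate 12 or 13 it did not pass (edgeR, adjusted p = 0.0515 and 0.0700).

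*Ddb2*, which recognises ultraviolet lesions, had 23.6, 23.4 and 27.2 CPM in *WT* and 35.0, 28.9 and 32.8 CPM in *VC* libraries. *Xpc* and *Ddb2*, which act at the same step, thus moved in opposite directions. The log2 fold change of *Ddb2* was 0.38 (SE 0.12, edgeR adjusted p = 0.0360), and it did not pass without *WT* replicate 1 or 2 or *VC* replicate 11 or 13 (edgeR, adjusted p from 0.0763 to 0.133). Exons of *Acp2* on the opposite strand cover 23.8% of its exon bases, and *Acp2* had a log2 fold change of 0.17 (edgeR, adjusted p = 0.293).

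*Ercc5*, the XPG endonuclease, had 44.9, 46.5 and 47.7 CPM in *WT* and 36.9, 39.2 and 39.1 CPM in *VC* libraries. The groups did not overlap, and the fall of 0.27 on the log2 scale (SE 0.09, edgeR adjusted p = 0.0342) was the smallest change called among the 31 genes. It passed only without *WT* replicate 2 when single libraries were left out (edgeR, adjusted p of the others from 0.0508 to 0.140). *Polk*, a translesion DNA polymerase, had a log2 fold change of 0.22 and *Rrm2b*, the p53-inducible subunit of ribonucleotide reductase, of -0.18, and neither passed (edgeR, adjusted p = 0.164 and 0.343).

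Among the genes of apoptosis and autophagy, *Zmat3* and *Apaf1* fell, *Dram1* rose and 4 of the 7 tested did not pass, beside 22.7% of all genes lower and 21.5% higher. *Zmat3* (chromosome 3, 32334792 to 32366014), an RNA-binding zinc finger protein that acts downstream of p53 in growth suppression, had 124, 79.1 and 105 CPM in *WT* and 29.3, 26.5 and 24.8 CPM in *VC* libraries. The lowest *WT* library lay far above the highest *VC* library. Its log2 fold change was -1.93 (SE 0.17) and its adjusted p of 0.000144 was the smallest of the 31 genes in edgeR.

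*Apaf1* (chromosome 10, 90989311 to 91082770), the core of the apoptosome that activates caspase-9, had 158, 166 and 161 CPM in *WT* and 125, 116 and 119.8 CPM in *VC* libraries. The groups did not overlap and each was tight. It fell by 0.42 on the log2 scale (SE 0.07, edgeR adjusted p = 0.00323), a small change that was still called with each library left out in turn.

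*Dram1*, a lysosomal membrane protein of autophagy, had 14, 15 and 24 counts in *WT* and 72, 57 and 24 counts in *VC* libraries. Replicate 13 of *VC* lay within the *WT* range. Its log2 fold change was 1.40 (SE 0.45, edgeR adjusted p = 0.0364). It did not pass without *WT* replicate 1 or 2 or *VC* replicate 11 or 12 (edgeR, adjusted p from 0.0878 to 0.129).

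*Trp53inp1*, which promotes p53-dependent death and autophagy, had a log2 fold change of -0.43 that did not pass (edgeR, adjusted p = 0.0601) but passed without *WT* replicate 2 (edgeR, adjusted p = 0.0171, log2 fold change -0.56). *Aen*, a nuclease of apoptosis, and *Ei24*, a membrane protein of the endoplasmic reticulum, had log2 fold changes of 0.16 and 0.19 (edgeR, adjusted p = 0.387 and 0.283). *Phlda3*, an inhibitor of Akt, had 38.9, 15.6 and 24.6 CPM in *WT* and 24.2, 19.1 and 25.8 CPM in *VC* libraries. Its log2 fold change of -0.20 (SE 0.30, edgeR adjusted p = 0.634) turned to 0.19 without *WT* replicate 1, the highest library. *Perp*, a membrane protein of desmosomes, had 0, 0 and 2 counts in *WT* and 0, 2 and 3 counts in *VC* libraries, which is within the limit that a count of 0 allows.

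Of the 5 genes of metabolism, nutrient signaling and the cell surface, 3 fell and none rose, beside 22.7% and 21.5% of all genes tested, and the calls of *Dcxr* and *Tigar* were lost when single libraries were left out. *Cd82* (chromosome 2, 93419111 to 93463140), a tetraspanin that restrains cell migration, had 128, 129 and 108 CPM in *WT* and 56.6, 62.8 and 62.1 CPM in *VC* libraries. Again the groups were apart. It fell by 1.01 on the log2 scale (SE 0.10, edgeR adjusted p = 0.000238).

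*Dcxr*, a reductase of sugars and dicarbonyls, had 15.5, 9.97 and 9.99 CPM in *WT* and 7.20, 6.47 and 7.72 CPM in *VC* libraries. The groups did not overlap, although replicate 1 of *WT* stood above the rest. The log2 fold change was -0.73 (SE 0.23, edgeR adjusted p = 0.0342), and it did not pass without that replicate or without any of the *VC* libraries (edgeR, adjusted p from 0.0649 to 0.110).

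*Tigar*, a phosphatase that lowers glycolytic flux, had 11, 34 and 20 counts in *WT* and 6, 12 and 7 counts in *VC* libraries. The groups overlapped in counts but, by a small margin, not in CPM. The log2 fold change was -1.50 (SE 0.53), the adjusted p of 0.0497 from edgeR was the closest to the threshold among the calls, and when single libraries were left out the gene stayed past it only without *WT* replicate 1 (edgeR, adjusted p of the others from 0.0665 to 0.164).

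*Sesn1* and *Tsc2*, which both restrain mTORC1, did not pass. *Sesn1* had 49.3, 51.5 and 47.9 CPM in *WT* and 53.7, 59.1 and 61.6 CPM in *VC* libraries, with no overlap and a log2 fold change of 0.23 (SE 0.09, edgeR adjusted p = 0.0697). *Tsc2* had a log2 fold change of -0.18 (SE 0.11, edgeR adjusted p = 0.212), and exons of *Pkd1*, which was lower, cover 7.2% of its exon bases on the opposite strand.

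In all, 10 of the 18 calls kept an adjusted p under 0.05 with each library left out and in each other analysis that tested the gene, where no minimum change was set. *Gadd45a* was not tested where 10 counts were asked of every library, and *Pml*, *Ccng1*, *Gadd45g* and *Apaf1* changed by less than 2-fold. The 10 were *Gadd45a* and *Pml*, which rose, and *Ccng1*, *Plk3*, *Gadd45b*, *Gadd45g*, *Rb1*, *Zmat3*, *Apaf1* and *Cd82*, which fell. The other 8 (*Mdm2*, *Btg2*, *Xpc*, *Ddb2*, *Ercc5*, *Dram1*, *Tigar* and *Dcxr*) each lost the call when some library was left out, and 0 of the 18 changed direction.

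The remaining genes of the pathway were taken from lists made by hand. Of 42 other p53 targets, 36 were tested, and 13 (36.1%) were lower and 10 (27.8%) higher, beside 22.7% and 21.5% of all genes, with a median log2 fold change of -0.18. *Cdkn1a*, which encodes the cell cycle inhibitor p21 and is the best known p53 target, had 15374, 9766 and 8795 counts in *WT* and 2250, 1405 and 1279 counts in *VC* libraries. The groups were far apart, with a log2 fold change of -2.92 (SE 0.30, edgeR adjusted p = 0.000281), a larger fall than that of any of the 31 genes.

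The named targets with a part in cell death were *Bax*, *Bbc3*, *Pmaip1* and *Fas*. *Bax*, a pore-forming member of the BCL2 family, fell by 0.38 on the log2 scale (SE 0.13, edgeR adjusted p = 0.0422). *Bbc3*, which encodes Puma, had a log2 fold change of -0.25 and *Pmaip1*, which encodes Noxa, of 1.01, and neither passed (edgeR, adjusted p = 0.503 and 0.258). *Pmaip1* had 32, 29 and 65 counts in *WT* and 173, 81 and 21 counts in *VC* libraries, again with replicate 13 the lowest of its group. *Fas*, the death receptor gene, had at most 20 counts in any library and was not tested.

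Other targets moved in both directions. *Lif*, a cytokine, had 3220, 940 and 1760 counts in *WT* and 11, 14 and 4 counts in *VC* libraries (log2 fold change -7.78, SE 0.61, edgeR adjusted p = 9.69e-05). *Gpx1*, a glutathione peroxidase, rose by 1.39 (SE 0.12, edgeR adjusted p = 0.000141), and *Ak1*, an adenylate kinase, rose by 3.92 from 2, 3 and 5 counts (SE 0.42, edgeR adjusted p = 0.000328). *Prkab1*, a subunit of AMPK, fell by 0.53 (edgeR, adjusted p = 0.00276), and *Pcna*, the replication clamp, had a log2 fold change of -0.08 (edgeR, adjusted p = 0.634).

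**Figure D5:**
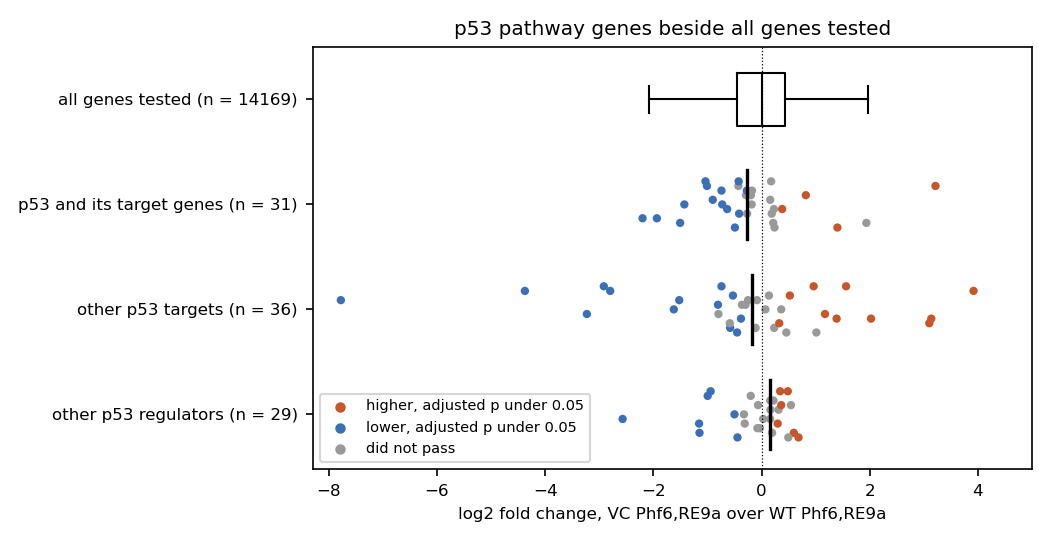
Log2 fold change of *VC* over *WT* cells (horizontal axis) for the 31 tested p53 genes, the 36 other p53 targets and the 29 other p53 regulators (points, coloured by edgeR's call, with a bar at the median) beside a box plot of all 14169 genes tested (box, quartiles; whiskers, percentiles 5 and 95). The medians were -0.27, -0.18, 0.16 and 0.01, and each list held genes on both sides of 0.

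Of 32 other regulators of p53, 29 were tested, and 7 (24.1%) were lower and 6 (20.7%) higher, close to the shares of all genes, with a median log2 fold change of 0.16. *Chek2*, a kinase that phosphorylates p53 after DNA damage, rose by 0.68 (SE 0.08, edgeR adjusted p = 0.000571), and *Daxx*, a chaperone of histone H3.3 that is found with Pml, rose by 0.60 (SE 0.07, edgeR adjusted p = 0.000652). *Ep300*, which acetylates p53, rose by 0.36 (edgeR, adjusted p = 0.00944). *Prmt5*, an arginine methyltransferase, fell by 0.94 (SE 0.13, edgeR adjusted p = 0.000885), and *Trp53bp2*, which steers p53 to death genes, fell by 1.15 (SE 0.17, edgeR adjusted p = 0.00161). The ribosomal protein genes *Rpl5* and *Rpl11*, whose products bind Mdm2, and *Usp7*, which stabilises both Mdm2 and p53, did not pass (edgeR, adjusted p = 0.215, 0.860 and 0.482).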

How the data were processed

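RNA-sequencing of 3 *WT* (*WT Phf6,RE9a*) and 3 *VC* (*VC Phf6,RE9a*) libraries was taken from the deposited table of 54532 genes. Read counts of each gene, deposited as whole numbers with no scaling, entered the tests. FPKM values, which were deposited too and divide each count by the gene length and a scaled library size, were used to compare levels between genes. Columns of the authors' own comparison (mean normalized counts, fold changes and p-values) were not used. The submitters' processing notes name Bowtie 0.12.0 and mm8, but 98.33% of the 54495 genes found in GENCODE M21 (GRCm38), with all 32 members among them, have the same start and end there, so GRCm38 was used. The counting tool and strandedness are not given in the sources used here.

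In R 4.3.3, genes were filtered with filterByExpr, scaled by TMM and compared with edgeR 4.0.16 (quasi-likelihood test, 2-sided, Benjamini-Hochberg adjustment over all genes tested, threshold 0.05). The standard error (SE) of a log2 fold change was taken as its size over the root of the F statistic. CPM values use the TMM library sizes. With 3 libraries per group, exact permutation of a single gene gives no p below 0.1. Alternatives were DESeq2 1.42.0, RLE size factors, no filter on counts, a minimum of 10 counts in all libraries, a change of at least 2-fold, log2(FPKM + 1) compared with limma 3.58.1, and each library left out in turn.

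Promoters were read from RefSeq sequences, and exon overlaps from GENCODE M21, as shares of the exon bases of a gene. Figures were drawn with matplotlib 3.10.9. The members, the lists of other targets, regulators and markers, and the tests were chosen with earlier results of these data known. Named genes are *Phf6*, the 32 members, *Cdkn1a*, *Bax*, *Bbc3*, *Pmaip1* and *Fas*, and in each of the 2 other p53 lists the 4 with the smallest p and the 4 with the highest mean CPM. Genes of the marker lists, exon partners and further targets with a motif match are named only where a result turns on them.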

Additional observations from a re-analysis of the deposited data

How the results depend on the processing

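With a change of at least 2-fold required, all genes gave 1410 higher and 1625 lower, the 32 p53 genes 2 and 6, the other targets 7 and 7, and the other regulators 0 higher and 3 lower. With libraries left out in turn, the p53 genes ran from 2 to 6 higher and from 8 to 13 lower, and the other targets from 8 (without *VC* replicate 12 or 13) to 14 lower. By DESeq2 5 of the p53 genes were higher and 14 lower, by RLE 4 and 14, with no count filter 4 and 13, with at least 10 counts in every library 3 and 12, and by limma 3 and 12. All genes gave 3082 higher and 3363 lower by DESeq2, 2993 and 3268 by RLE, and 3046 and 3381 with no count filter. With at least 10 counts in every library all genes gave 2565 and 2717, and by limma 2945 and 3115. *Phlda3*, not called, ran from -0.47 without *WT* replicate 2 to 0.19, a reversal, without *WT* replicate 1. Over genes and alternatives, 289 of 338 values kept their direction and side of the threshold, 39 lost the call, 9 gained it and 1 reversed. Low counts limit *Plk2*, *Gadd45a*, *Dram1* and *Tigar*: on limma's log2(FPKM + 1) scale their changes were 0.46, 1.69, 0.50 and -0.28. *Ercc5* also missed the threshold by limma and with no count filter, *Ddb2* with no count filter, *Btg2* with at least 10 counts in every library, *Tigar* by DESeq2, by limma and with no count filter, and *Dram1* by limma, while *Plk2* and *Trp53inp1* passed by DESeq2 and with no count filter. Leaving out a library also leaves fewer samples to the test, and otherwise the cause was not tested. No paired analysis was possible because the groups share no replicate number.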

Other observations

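Further genes of the p53 lists are given here, named after their values were seen. Among the regulators, the DNA damage kinases *Atm* (log2 fold change 0.34, SE 0.11, edgeR adjusted p = 0.0324) and *Atr* (0.30, SE 0.09, edgeR adjusted p = 0.0282) were slightly higher in *VC* cells. *Cdkn2a*, which encodes the Mdm2 inhibitor p19Arf and the cell cycle inhibitor p16Ink4a, had 440, 89 and 134 counts in *WT* and 43, 43 and 36 counts in *VC* libraries (log2 fold change -2.57, SE 0.59, edgeR adjusted p = 0.00978). Gene counts do not separate its products. The p53 relatives *Trp63* and *Trp73* had at most 2 counts in any library and were not tested.

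Among the targets, *Rprm*, a p53-induced gene tied to arrest before mitosis, had 2236, 573 and 1170 counts in *WT* and 34, 59 and 115 counts in *VC* libraries (log2 fold change -4.37, SE 0.59, edgeR adjusted p = 0.000971). *Gdf15*, a secreted stress cytokine, went the other way, with 9, 13 and 14 counts against 161, 86 and 93 counts (log2 fold change 3.10, SE 0.37, edgeR adjusted p = 0.000516). For each of these genes but *Trp63* and *Trp73* the libraries of the groups did not overlap, which also held for 57.3% of all genes tested. *Igfbp3*, *Sco2* and *Spata18* had 0 counts in each of the 6 libraries.

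The p53 response element was also found in the promoters of 6 of the 37 other targets with a RefSeq promoter (16.2%), against 1.57% of all genes in the table. Those of *Gtse1* and *Rps27l* had 1 mismatch, as did *Cdkn1a*. The match of *Zfp365* had 2 mismatches, and those of *Bbc3* and *Gpx1* had 3. *Gpx1* was higher in *VC* cells, as given before. *Gtse1*, a negative regulator of p53 made in dividing cells, was higher in *VC* cells (log2 fold change 0.96, SE 0.18, edgeR adjusted p = 0.00424), and *Rps27l* did not pass (log2 fold change 0.36, edgeR adjusted p = 0.126).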
